A study of Mus musculus with 6 samples.

Results

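Elastic fibers give stretch to tissues, and the genes described here encode their parts and the proteins that assemble them. The 10 genes are *Fbn1*, *Fbn2*, *Mfap2*, *Mfap4*, *Mfap5*, *Eln*, *Fbln2*, *Fbln5*, *Emilin1*, and *Lox*. They were found by gene name among the 55421 genes of the count table, and all 10 were present as rows. They were selected on what was already known of the same DM1 against normal comparison, so their levels and fold changes are given as a description. Where a member is said to be past a threshold, this states where it stood in the fit over all genes, and it is no independent test of the member.

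The samples were C2C12 cells, an established mouse myoblast line, carrying a GFP plasmid with 5 CTG repeats (GFP-CUG5, normal group) or 200 CTG repeats (GFP-CUG200, DM1 group) behind the reporter. Cells of both groups were selected with G418 until stable and were harvested at differentiation day 4, in a low-serum medium with insulin. The repeat is transcribed from the plasmid, so the model carries the repeat RNA outside its own gene, and the plasmid was not analysed here. Each group had 3 libraries of total RNA, which the study calls biological replicates. Whether they came from separate transfections is not given in the sources used here, so the SDs and p-values measure the spread between these libraries.

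Myotonic dystrophy type 1 (DM1) is caused by an expanded CTG repeat, whose RNA disturbs the differentiation of muscle cells. An elastic fiber consists of a core of cross-linked elastin laid down on a scaffold of microfibrils. Fibrillins form the microfibrils, microfibril-associated proteins decorate them, fibulins and EMILIN-1 join elastin to them, and lysyl oxidase cross-links elastin and collagen. Microfibrils also hold latent TGF-β in the matrix.

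Libraries held between 61707889 and 80957325 counts. Levels are given as CPM, counts scaled to the library total, after TMM scaling, which corrects for differences in library composition and here changed the library sizes by factors between 0.94 and 1.05. A count in this table stood for 75 aligned bases, and 1 sequenced fragment usually gave about 4 counts. A gene with 0 counts was therefore given an upper limit of 3 fragments (12 counts), which was worth between 0.143 and 0.195 CPM depending on the library and covers counting error only. A check for duplicated libraries found no pair that agreed within sampling noise (the chi-square divided by its degrees of freedom ranged from 39.5 to 243, raised about 4 times by the counts per fragment).

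Of the 10 genes, 8 had enough counts to be fitted, and *Fbn2* and *Eln* had 0 counts in every library. The mean level was higher in the DM1 group at 7 of the 8 genes, and the normal and DM1 libraries did not overlap at 4 of them, *Mfap5*, *Lox*, *Emilin1*, and *Fbln5*. These 4 genes were also the ones past an adjusted p of 0.05 on the higher side (edgeR's quasi-likelihood test, Benjamini-Hochberg over 19005 genes), and *Mfap5* alone was past the study's second cutoff as well, an absolute log2 fold change over 1. No gene was past the threshold on the lower side, and this count was also 0 at an unadjusted p of 0.05 and with DESeq2. Across all genes tested, 7.13% were past the threshold higher in the DM1 group and 8.73% lower, 1.36% were past both cutoffs higher, and 17.9% had DM1 libraries that all lay above the normal ones. With limma on log2(TPM + 1), *Mfap5* alone was past the threshold, and *Lox* (0.53), *Fbln5* (0.31), and *Emilin1* (0.30) were not. On log2(TPM + 0.1), *Mfap5* was again the only one, and the values of the other genes were 0.54, 0.33, and 0.46 in the same order. Because the comparison was used to choose the genes, nothing is read from their counts against these shares. The median log2 fold change was 0.53 over the 8 genes and 0.02 over all genes tested.

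**Figure D1:**
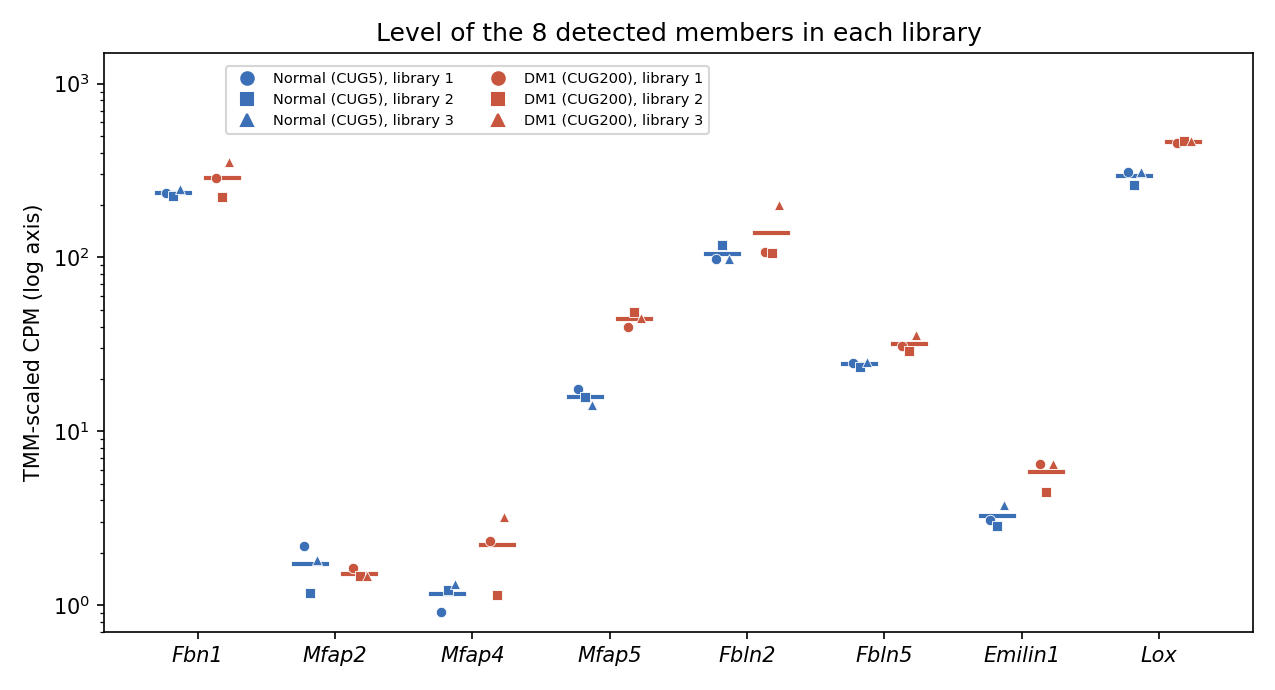
TMM-scaled CPM (log axis) of the 8 members with counts, 1 point per library (normal in blue, DM1 in red, marker shape by library number) and a line at the mean of each group. The DM1 points lie above all normal points for *Mfap5*, *Fbln5*, *Emilin1*, and *Lox*, and overlap with them for the other genes.

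Of the fibrillins, the large glycoproteins that polymerize into microfibrils, the cells held counts of *Fbn1* only. *Fbn1* (ENSMUSG00000027204, GRCm38 chr2:125300594-125507993, minus strand) had 235, 224, and 247 CPM in the normal libraries 1 to 3 and 285, 224, and 353 CPM in the DM1 libraries 1 to 3. DM1 library 2 was level with the lowest normal library, while DM1 libraries 1 and 3 lay above the normal range. The means were 235 ± 11.5 and 287 ± 64.7 CPM (± SD of 3 libraries). The log2 fold change was 0.29 ± 0.151 (SE here and below), and it was 0.11 without DM1 library 3 and 0.44 without DM1 library 2. *Fbn2* (ENSMUSG00000024598, chr18:58008623-58210487, minus strand), the fibrillin known mainly from embryonic tissue, was not detectable at this depth in either group.

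The 2 microfibril-associated glycoproteins, which bind fibrillin, differed from each other. *Mfap5* (ENSMUSG00000030116, chr6:122505845-122529290, plus strand), which encodes MAGP-2, had 17.5, 15.8, and 14.2 CPM in the normal libraries and 39.8, 48.6, and 44.7 CPM in the DM1 libraries. Every DM1 library was far above every normal library, and the DM1 libraries stayed close to each other. The means were 15.8 ± 1.68 and 44.4 ± 4.4 CPM, so the level was 2.80-fold higher (log2 fold change 1.49 ± 0.117). This was the highest fold change of the 8 genes, and it lay between 1.39 and 1.57 in all 16 alternative analyses.

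*Mfap2* (ENSMUSG00000060572, chr4:141010418-141015984, plus strand), which encodes MAGP-1, was the only one of the 8 genes with a lower mean in the DM1 group. Its counts were low, between 72 and 183 per library. Its levels were 2.18, 1.17, and 1.82 CPM in the normal libraries and 1.63, 1.46, and 1.46 CPM in the DM1 libraries. By CPM, all DM1 values lay inside the normal range. The log2 fold change was -0.19 ± 0.263, and it turned to 0.02 without normal library 1. By TPM, which is scaled for transcript length and so allows levels of different genes to be compared, the ratio of *Mfap5* to *Mfap2* was 5.35, 6.90, and 5.34 in the normal libraries and 16.6, 22.4, and 22.9 in the DM1 libraries. *Mfap5* was thus above *Mfap2* in all 6 libraries, and the ratio did not overlap between groups. The TPM values of *Mfap2* alone were 3.642, 2.399, and 2.713 in the normal and 2.265, 2.062, and 2.359 in the DM1 libraries. On that scale every DM1 library was below every normal one, unlike by CPM. In normal library 2, 1000 counts of *Mfap2* were worth 33.3 TPM, compared with 18.7 to 24.3 TPM in the other libraries. By counts per exon kilobase the ratio was lower, at 2.71, 4.55, and 2.63 in the normal and 8.26, 11.2, and 10.3 in the DM1 libraries, and did not overlap either.

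*Mfap4* (ENSMUSG00000042436, chr11:61485431-61488900, plus strand), a fibrinogen-related protein found on elastic fibers, was also low, with 75 to 212 counts per library. It had 0.916, 1.22, and 1.32 CPM in the normal libraries and 2.34, 1.14, and 3.19 CPM in the DM1 libraries. DM1 library 2 lay inside the normal range and the other DM1 libraries above it, so the groups overlapped. The log2 fold change was 0.95 ± 0.365, with 0.60 without DM1 library 3 and 1.26, past both cutoffs, without DM1 library 2. Exons of *Mfap4* share 89 bases with *Mapk7* on the opposite strand, a gene with 1596 to 2213 counts per library and a log2 fold change of 0.02. The strand setting of the counting is not given in the sources used here, so reads of the 2 genes in the shared bases cannot be told apart.

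*Eln* (ENSMUSG00000029675, chr5:134702593-134747323, minus strand) encodes tropoelastin, the soluble precursor of the elastic core. It had 0 counts in all 6 libraries. By counting error alone, this allows at most 0.143 CPM in the deepest and 0.195 CPM in the shallowest library. The scaffold and cross-linking genes were thus measured in cells in which *Eln* itself was not detectable at this depth. Exons of *Eln* share 267 bases with *Gm30003*, and exons of *Fbn2* share 129 bases with *Gm26507*, each on the opposite strand. Whether the assignment of reads played a part in the 0 counts of *Eln* and *Fbn2* was not tested.

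The fibulins bind elastin and fibrillin and guide assembly of the fiber. *Fbln5* (ENSMUSG00000021186, chr12:101746565-101819055, minus strand), which brings tropoelastin to microfibrils and cells, had 24.8, 23.4, and 25.0 CPM in the normal libraries and 30.8, 29.1, and 35.9 CPM in the DM1 libraries. The normal libraries were nearly level, and every DM1 library was above them. The means were 24.4 ± 0.860 and 31.9 ± 3.52 CPM (1.31-fold, log2 fold change 0.39 ± 0.104). The gene was near the threshold: it was no longer past it without normal library 1, 2, or 3 (log2 fold change 0.40, 0.36, and 0.42) or without DM1 library 2 or 3 (0.45 and 0.29), nor with library sizes alone (0.37).

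*Fbln2* (ENSMUSG00000064080, chr6:91212455-91272540, plus strand), a fibulin that binds fibrillin, elastin, and basement membrane proteins, turned on a single library. Its levels were 97.5, 118, and 98.3 CPM in the normal libraries and 108, 106, and 201 CPM in the DM1 libraries. DM1 libraries 1 and 2 lay inside the normal range, and DM1 library 3 was far above all other libraries. The log2 fold change of 0.40 ± 0.262 was 0.03 without DM1 library 3.

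*Emilin1* (ENSMUSG00000029163, chr5:30913402-30921277, plus strand) encodes an elastin interface glycoprotein that also restrains the processing of pro-TGF-β. It had 3.07, 2.87, and 3.76 CPM in the normal libraries and 6.51, 4.46, and 6.51 CPM in the DM1 libraries, from 176 to 484 counts per library. All DM1 libraries were above all normal libraries, with DM1 library 2 the lowest of them. The means were 3.23 ± 0.471 and 5.83 ± 1.18 CPM (1.80-fold, log2 fold change 0.85 ± 0.198). It was no longer past the threshold without normal library 1 or 2 or DM1 library 1 (log2 fold change 0.81, 0.77, and 0.78), and was past both cutoffs without DM1 library 2 (1.01). The TPM values of *Emilin1* overlapped, at 1.42, 1.22, and 3.14 in the normal and 2.60, 1.88, and 3.02 in the DM1 libraries. In normal library 3, 1000 counts of this gene were worth 11.9 TPM, compared with 5.38 to 6.97 TPM in the other libraries.

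Promoter windows from RefSeq (GRCm38.p6), covering 250 bases before to 50 bases after an annotated start, were matched by symbol for 5 of the 10 genes, *Fbn1*, *Mfap2*, *Emilin1*, *Fbln2*, and *Fbln5*, with 7 windows in all. No window was matched by symbol for *Mfap4*, *Mfap5*, *Eln*, *Fbn2*, and *Lox* in the set of windows used here. Each window was searched on both strands for a SMAD box (CAGAC), a TEAD site (GGAATG), an AP-1 site (TGANTCA), an E-box (CANNTG), and a TATA box (TATAAA). These are the letters bound by effectors of TGF-β, Hippo, and stress signaling, by myogenic factors, and by the basal transcription machinery. The windows of *Emilin1* and *Fbln5* are shown because these genes did not overlap between groups, and a window of *Mfap2* is shown as the gene with a lower mean. They are written 5′ to 3′ on the strand of the gene, and capitals mark matches to the SMAD box or the TEAD site in either orientation.
Emilin1 (chr5:30913536-30913835, plus strand): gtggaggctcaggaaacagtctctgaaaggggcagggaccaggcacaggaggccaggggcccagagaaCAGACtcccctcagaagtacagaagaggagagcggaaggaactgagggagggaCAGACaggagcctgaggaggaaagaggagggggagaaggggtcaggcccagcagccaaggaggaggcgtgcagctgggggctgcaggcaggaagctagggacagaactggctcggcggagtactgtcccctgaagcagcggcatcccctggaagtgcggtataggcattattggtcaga
Fbln5 (chr12:101819070-101819369, minus strand): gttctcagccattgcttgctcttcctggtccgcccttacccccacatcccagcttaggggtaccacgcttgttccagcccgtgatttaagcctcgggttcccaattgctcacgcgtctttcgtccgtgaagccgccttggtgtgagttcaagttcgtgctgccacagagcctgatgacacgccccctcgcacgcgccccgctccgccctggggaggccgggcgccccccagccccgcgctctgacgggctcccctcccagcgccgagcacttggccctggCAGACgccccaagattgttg
Mfap2 (chr4:141010174-141010473, plus strand): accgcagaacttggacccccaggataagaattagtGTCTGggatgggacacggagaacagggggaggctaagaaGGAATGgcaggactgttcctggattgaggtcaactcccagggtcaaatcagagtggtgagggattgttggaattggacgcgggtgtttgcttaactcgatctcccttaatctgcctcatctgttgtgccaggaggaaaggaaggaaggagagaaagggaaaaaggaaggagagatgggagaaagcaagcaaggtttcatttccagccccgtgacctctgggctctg

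The *Emilin1* window held 2 SMAD boxes, the *Fbln5* window 1, and the *Mfap2* window 1 beside a TEAD site. A further window of *Fbln5* held 2 SMAD boxes, and a further window of *Mfap2* held neither the SMAD box nor the TEAD site. In all, 4 of the 7 windows held a SMAD box, 1 a TEAD site, and 5 an E-box, and the letters of the AP-1 site and the TATA box were in none. Of all 32851 promoter windows of the same length, 49.6% held the SMAD box, 14.7% the TEAD site, 72.3% the E-box, 7.81% the AP-1 site, and 13.6% the TATA box, counting each motif separately although matches of different motifs can share bases. The printed windows of *Emilin1* and *Fbln5* had 62% and 66% G and C, and that of *Mfap2* 52%, against a median of 52.7% over all windows. The further windows of *Fbln5* and *Mfap2* had 48.7% and 68%, so the order of these genes by G and C depended on the window. These matches describe the sequence and do not show binding.

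*Lox* (ENSMUSG00000024529, chr18:52516067-52529867, minus strand), the lysyl oxidase that cross-links elastin and collagen, was the most abundant of the 10 genes. It had 311, 260, and 309 CPM in the normal libraries and 454, 465, and 469 CPM in the DM1 libraries. The DM1 libraries were almost level and all above the normal ones. The means were 293.5 ± 28.7 and 463 ± 7.63 CPM (1.58-fold, log2 fold change 0.66 ± 0.0935). The fold change lay between 0.58 and 0.71 when each library was left out in turn. Exons of *Lox* share 30 bases with *AC161119.1*, and exons of *Fbn1* share 2442 bases with *Gm9913*, each on the opposite strand. Those genes held at most 526 and 33 counts in a library, far fewer than *Lox* or *Fbn1*. Both were higher in the DM1 group, *AC161119.1* with a log2 fold change of 0.76 (adjusted p = 0.0255) and *Gm9913* with one of 2.81 (adjusted p = 0.0350), and their part in the levels of *Lox* and *Fbn1* was not tested.

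The 6 libraries did not differ at the same genes in the same way. DM1 library 3 was the highest DM1 library at 6 of the 8 genes, and DM1 library 2 and normal library 2 were each the lowest of their group at 5. On the log2 scale, DM1 library 3 was above the mean of the other DM1 libraries by 0.95 at *Mfap4*, 0.91 at *Fbln2*, and 0.48 at *Fbn1*, but by 0.03 at *Lox* and 0.02 at *Mfap5*. The first 3 of these excesses were greater than those of 95.8%, 95.5%, and 88.7% of all genes tested, while those of *Lox* and *Mfap5* were near the middle of all genes. *Mfap5* and *Lox* thus separated the groups evenly, whereas *Fbn1*, *Mfap4*, and *Fbln2* varied within the DM1 group. Without DM1 library 3, 3 of the 10 genes were past the threshold on the higher side in place of 4, and *Fbln5* was the one no longer past it.

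**Figure D2:**
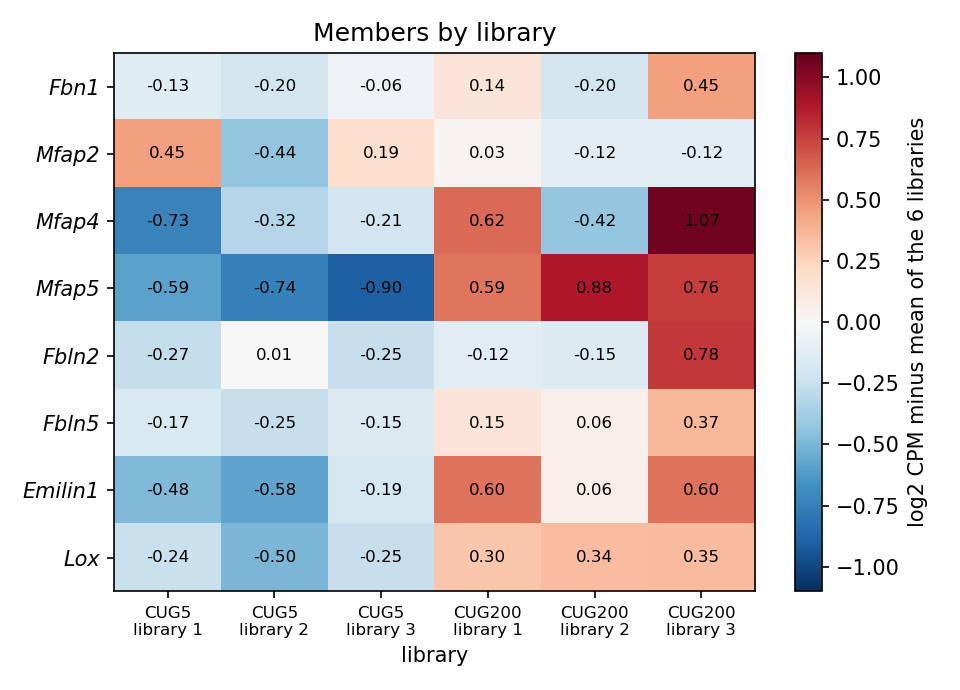
Log2 CPM of each of the 8 genes in each library, minus its mean over the 6 libraries (colour and printed value). *Mfap5*, *Fbln5*, *Emilin1*, and *Lox* are below 0 in all normal and above 0 in all DM1 libraries. The top value of *Mfap4* (1.07) and *Fbln2* (0.78) is in DM1 library 3.

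Levels per transcript length set the genes in an order that the selection had not used. In the normal group, mean TPM was 105 for *Lox*, 61.6 for *Fbln2*, 35.4 for *Fbn1*, 16.9 for *Mfap5*, and 11.0 for *Fbln5*, and no neighbours among these 5 overlapped in range. *Mfap2* (2.92), *Emilin1* (1.92), and *Mfap4* (1.15) followed, with overlapping ranges between neighbours. In the DM1 group, *Lox* (152) and *Fbln2* (83.2) were again first, followed by *Mfap5* (46.0), *Fbn1* (40.6), and *Fbln5* (14.1). *Mfap5* was above *Fbn1* in 2 of 3 DM1 libraries and their ranges overlapped, so by TPM these 2 neighbours did not differ beyond their spread. *Emilin1* (2.50), *Mfap4* (2.28), and *Mfap2* (2.23) came last and overlapped. With counts divided by the length of all exons in place of TPM, *Fbn1* stood above *Fbln2* in both groups, in 2 of 3 libraries each and with overlapping ranges. On that scale *Fbn1* was also above *Mfap5* in all 3 DM1 libraries, at 22.1, 18.3, and 30.5 compared with 10.4, 13.4, and 13.0 CPM per exon kilobase, here without TMM scaling. The order of these 2 genes in the DM1 group thus depended on how length was taken into account.

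As a share of the summed TPM of the 8 genes, *Lox* made up 44.4% ± 2.85 in the normal and 44.9% ± 4.02 in the DM1 group. The share of *Mfap5* was 7.13% ± 0.755 and 13.5% ± 1.08, with no overlap between groups, and that of *Fbn1* was 15.0% ± 0.414 and 11.7% ± 1.82. *Fbn1* therefore took a smaller share in each DM1 library than in any normal library although its own mean level was not lower. By counts per exon kilobase the mean shares differed in size, at 4.1% and 7.6% for *Mfap5*, 57.2% and 59.7% for *Lox*, and 18% and 14.5% for *Fbn1* in the normal and DM1 group.

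Within the lysyl oxidases, *Lox* held 62.2% ± 1.22 of the family's TPM in the normal and 67.8% ± 1.58 in the DM1 group. *Loxl3* and *Loxl4*, related cross-linking enzymes, rose with adjusted p of 0.00878 and 0.00808 (log2 fold change 0.60 ± 0.106 and 1.38 ± 0.234). With limma on log2(TPM + 1), *Loxl4* kept its call (adjusted p = 0.0294) and *Loxl3* did not (0.49, adjusted p = 0.145). *Loxl1*, the family member tied to elastic fiber upkeep, had a log2 fold change of -0.12 (adjusted p = 0.431), and *Loxl2* one of 0.21 (adjusted p = 0.127). Among the fibulins, *Fbln2* held 50.5% ± 3.35 of the family's TPM in the normal and 56.7% ± 3.54 in the DM1 group, ahead of *Efemp2* with 29.9% ± 3.38 and 26.1% ± 2.38. *Efemp2* encodes fibulin-4, which tethers lysyl oxidase to tropoelastin, and its log2 fold change was 0.05 (adjusted p = 0.853). *Fbln7*, a cell-adhesive fibulin, fell from 5.95 to 2.29 CPM (log2 fold change -1.38 ± 0.219, adjusted p = 0.00608).

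**Figure D3:**
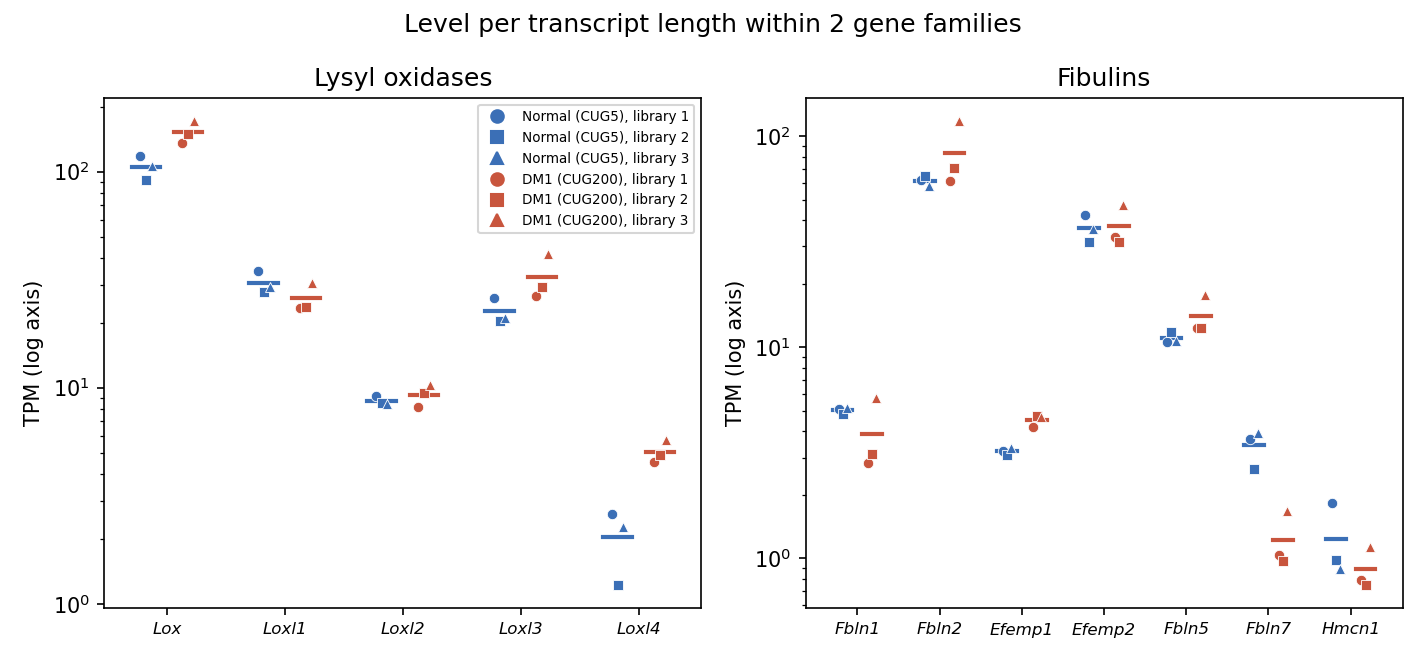
TPM (log axis) of the lysyl oxidases (left) and the fibulins (right) in each library, with a line at each group mean (normal in blue, DM1 in red). *Lox* is the highest lysyl oxidase and *Fbln2* the highest fibulin in every library, and *Loxl4* and *Fbln7* lie apart between groups in opposite directions.

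Around the 10 genes, a list of 78 partner genes in 13 roles (ligands and receptors of the fiber, processing enzymes, proteases, inhibitors) was drawn up by role. Like the members, it was set up with earlier results of these data known, so its counts are not independent evidence of a direction. Of these, 69 were tested. In the same fit, 14 rose in the DM1 group (20.3% of those tested, compared with 7.13% of all genes), 9 fell (13.0%, compared with 8.73% of all genes), and 46 did not pass, and the median log2 fold change was 0.05. With limma on log2 TPM values, 3 rose (*Adamts6*, *Loxl4*, and *Tinagl1*) and 6 fell (*Timp2*, *Fbln7*, *Itgb6*, *Mfap3l*, *Itgb5*, and *Cela1*), and every other partner gene past the threshold in edgeR's test lost its call there. The count that rose was 7, 6, or 6 without normal library 1, 2, or 3, and 16, 7, or 15 without DM1 library 1, 2, or 3. The count that fell was 5, 8, or 4 and 8, 6, or 13 in the same order.

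None of the 4 latent TGF-β binding proteins, which dock on fibrillin, passed the test, nor did any of the 3 TGF-β ligands. *Ltbp1* had a log2 fold change of -0.20 (adjusted p = 0.272), and *Tgfb1* had one of -0.23 (adjusted p = 0.186), which passed without DM1 library 3 (-0.34, adjusted p = 0.0274). *Tgfb2* lay on the other side, at 0.39 (adjusted p = 0.0842), and passed with DESeq2 (0.39, adjusted p = 0.0436) and without DM1 library 1 (0.49, adjusted p = 0.0458). *Tgfb3* was at -0.31 (adjusted p = 0.0691) and likewise passed without DM1 library 3 (-0.40, adjusted p = 0.00937) and with DESeq2 (-0.30, adjusted p = 0.0450). *Tgfb2* and *Tgfb3* were named after their values were seen. Of the fibulin group, 1 rose and 1 fell among 5. Of the EMILIN and multimerin group, *Emilin2* was the only gene with enough counts (log2 fold change 0.45, adjusted p = 0.0612). It was past the threshold with DESeq2 (adjusted p = 0.0256), with at least 10 counts required in every library (adjusted p = 0.0483), and with counts divided by 4 (adjusted p = 0.0479).

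Of the 5 genes tested for activation of lysyl oxidase and its scaffold, 2 rose. *Bmp1*, the proteinase that cleaves the pro-forms of lysyl oxidase and collagen, rose from 276 ± 8.71 to 372 ± 54.6 CPM (log2 fold change 0.43 ± 0.113, adjusted p = 0.0335). This call was lost without normal library 1, 2, or 3 (0.41, 0.44, and 0.46) and without DM1 library 2 (0.44), with library sizes alone (0.42), and with limma (0.27). *Fn1*, encoding fibronectin, on which fibrillin is assembled, rose as well (log2 fold change 0.50, adjusted p = 0.0379), and the other 3 did not pass. Among the ADAMTS and ADAMTS-like genes, several of whose products bind or cleave fibrillin, *Adamts6* rose from 82.2 to 142 CPM (log2 fold change 0.79 ± 0.0769, adjusted p = 0.00145), the smallest p of the partner list. *Adamtsl2* fell (log2 fold change -1.05 ± 0.205, adjusted p = 0.0125), a call lost without normal library 1 (-1.01) or 3 (-0.98). It was also lost with limma on log2(TPM + 1) (-0.81) and on log2(TPM + 0.1), where the fold change was as large (-1.1). *Adamtsl4*, another binder of fibrillin, had a log2 fold change of -0.04 (adjusted p = 0.889).

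Genes for proteins on the fiber surface and at the cell moved in both directions. *Vcan*, encoding the large proteoglycan versican, rose (log2 fold change 0.53 ± 0.0867, adjusted p = 0.00672, but 0.38 and adjusted p = 0.156 with limma), and of 4 proteoglycans 2 rose. *Mfap3l*, named for its likeness to *Mfap3*, fell from 459 to 328 CPM (log2 fold change -0.48 ± 0.0847, adjusted p = 0.00845), whereas *Mfap3* was at 0.06 (adjusted p = 0.704). Of 7 integrin genes tested, *Itgb5* and *Itgb6*, whose products bind the RGD motif of matrix proteins, fell, with log2 fold changes of -0.50 and -0.58 and adjusted p of 0.00922 and 0.00688. The call of *Itgb5* was lost without normal library 3 (-0.45, adjusted p = 0.0569). *Itgav*, their shared partner, had a log2 fold change of -0.22 (adjusted p = 0.523).

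Of the elastases, 1 of 6 fell, and *Mmp2* was at -0.08 (adjusted p = 0.728). Among their inhibitors, *Timp1* rose from 552 to 766 CPM (log2 fold change 0.47 ± 0.0764, adjusted p = 0.00646) while *Timp2* fell from 777 to 456 CPM (log2 fold change -0.77 ± 0.119, adjusted p = 0.0055). With limma on log2(TPM + 1), *Timp2* kept its call (-0.90, adjusted p = 0.0238) and *Timp1* did not (0.35, adjusted p = 0.0913). Of the 10 genes of secretion and cutis laxa, the inherited disorder of loose skin, *Rin2*, encoding a Rab5 regulator, rose (log2 fold change 0.50 ± 0.0844, adjusted p = 0.00731, but 0.38 and adjusted p = 0.111 with limma), and *Fkbp10*, a collagen chaperone, was at 0.04 (adjusted p = 0.836). The remaining genes past the threshold, named after their values were seen, were *Efemp1*, *Timp3*, *Tinagl1*, *Dcn*, *Pycr1*, and *Cst3* on the higher side and *Npnt*, *Adamtsl5*, and *Cela1* on the lower side, with adjusted p between 0.0139 and 0.0334 in edgeR's test. Each of these calls, and that of *Fn1*, was lost in 2 to 4 of the 6 analyses that left out a library. *Fn1* was likewise named after its value was seen, as was *Loxl2*.

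**Figure D4:**
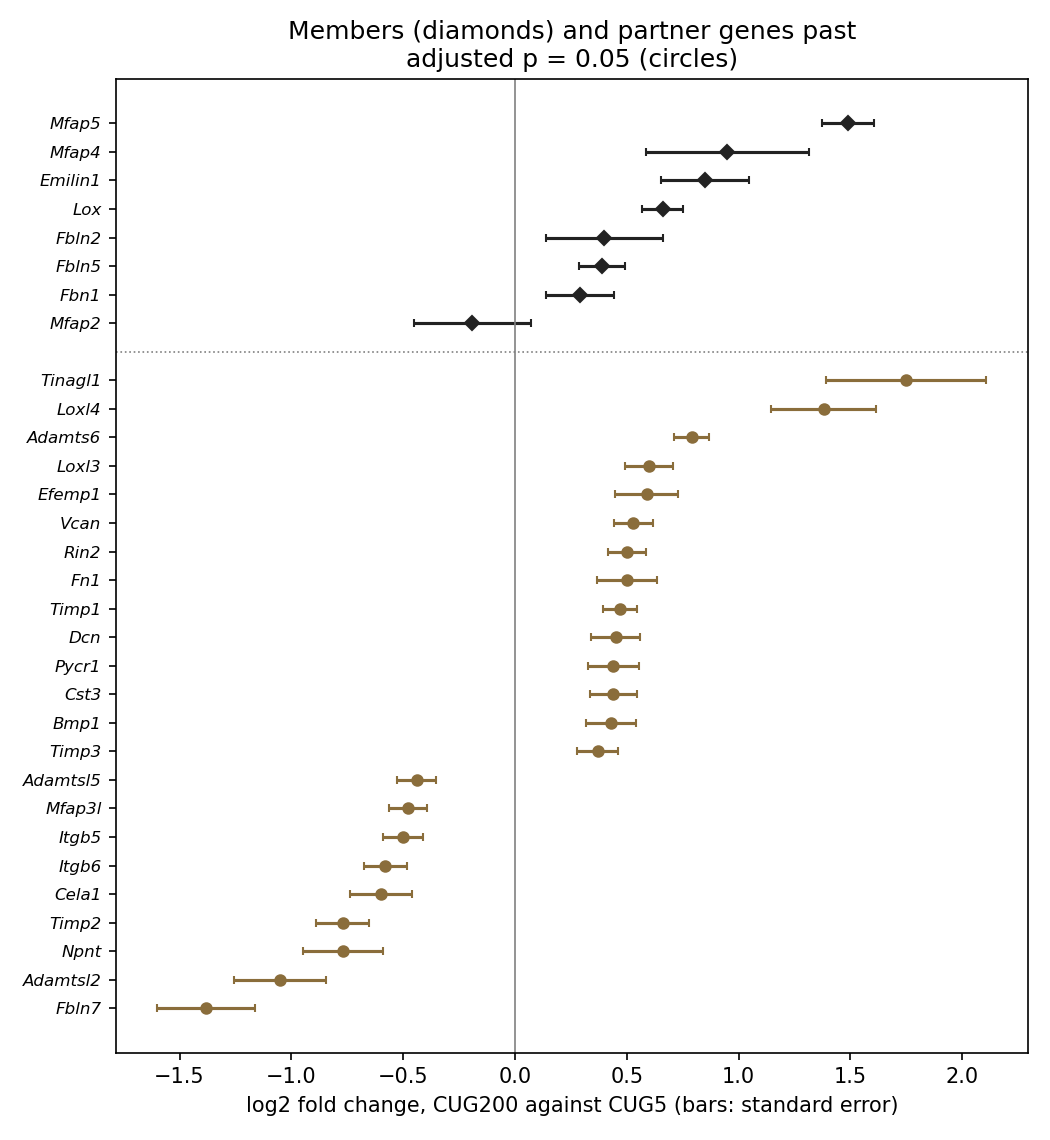
Log2 fold change of the DM1 against the normal group with its standard error, for the 8 members (diamonds, a description) and the 23 partner genes past an adjusted p of 0.05 (circles). *Mfap5* (1.49) is the highest member, and among partner genes the values run from -1.38 (*Fbln7*) to 1.75 (*Tinagl1*).

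Markers of cell state moved with the groups as well. Of 10 myotube genes, 8 fell in the DM1 group. Those with the smallest p were *Myh8*, a developmental myosin (log2 fold change -2.90, adjusted p = 7.65e-05), and *Ckm*, the muscle creatine kinase (-0.84, adjusted p = 0.00159). The other 2, *Mymk* and *Mymx*, did not pass and were named after their values were seen. *Mymk* was at -0.55 (adjusted p = 0.304) with overlapping groups. *Mymx* was at 0.23 (adjusted p = 0.0732), with 58.3 to 60.8 CPM in the normal and 67.3 to 73.5 CPM in the DM1 libraries. Without DM1 library 3, 1 myotube gene was past the threshold on the higher side. The summed CPM of the myotube genes was between 12998 and 14199 in the normal and between 7016 and 9162 in the DM1 libraries, with the DM1 maximum in library 3. Of 8 fibroblast genes tested, 4 rose and none fell, with *Col1a1* at 1.06 (adjusted p = 0.000916) and *Dpt* at 1.08 (adjusted p = 0.00304). Their sum was between 3797 and 4224 CPM and between 4837 and 5240 CPM, *Tcf21* was at 0 in every library, and 1 of the genes, *Dcn*, is also on the partner list. Of 7 smooth muscle genes tested, *Tagln* (1.31) and *Cnn1* (1.54) rose and *Des* fell, and the sums overlapped, at 4797 to 5053 CPM and 5047 to 5318 CPM. *Des* is on the myotube list too, and without it the sums were 3105 to 3368 CPM and 3778 to 3946 CPM, which did not overlap. Endothelial markers were near 0, with summed levels of 9.2 to 11.0 CPM and 5.2 to 6.8 CPM, mostly from *Tek*, and *Tie1* was at 0. Only 2 of the 8 endothelial genes could be tested, and *Tek* fell (-0.95, adjusted p = 0.0107). In undifferentiated and reserve cell genes, 1 of 10 rose (*Cd34*, log2 fold change 0.97) and 3 fell, among them *Heyl*, a Notch target (-1.61, adjusted p = 0.00109), and their sums were 452 to 478 CPM and 416 to 452 CPM. The part of these cell states in the levels of the elastic fiber genes was not tested, and in bulk RNA fewer cells of a type cannot be told apart from less RNA per cell.

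Among 9656 genes with a mean of at least 10 CPM, those whose log2 CPM over the 6 libraries was most like the mean centred profile of the 8 genes were *G6pdx* (Pearson's r = 0.998), *Mmaa* (0.990), *Tgm2* (0.986), *Ttc21b* (0.984), and *Pgm2* (0.984). These points share 6 libraries and the difference between the groups, so the values are a description. *Tgm2*, a matrix cross-linking transglutaminase, had 99.5, 93.7, and 97.6 CPM in the normal and 117, 108, and 136 CPM in the DM1 libraries. Its DM1 libraries were all above the normal ones, with the highest value in DM1 library 3.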

How the data were processed

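Total RNA of 6 libraries was sequenced, 3 of C2C12 GFP-CUG5 and 3 of C2C12 GFP-CUG200 cells. The authors trimmed reads with Trim Galore, aligned them to GRCm38 with HISAT2, and ran StringTie. They deposited raw counts per gene for all libraries. They also deposited a table per library with the coverage (signal) of each gene and its TPM values, which StringTie scales for length and depth. The FPKM values beside them were not used. Dividing coverage times length by counts gave 75 bases per count, within 1 count, for 99.5% of 14019 genes with a single transcript. Read length and strand setting are not given in the sources used here.

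Counts were joined to names by gene ID. Genes passing filterByExpr (minimum count 10) were fitted with edgeR 4.0.16 (R 4.3.3), using TMM scaling, robust quasi-likelihood tests, and Benjamini-Hochberg adjustment over 19005 genes. A gene was called at an adjusted p under 0.05. The study's methods name DESeq2, which was run as an alternative (DESeq2 1.42.0), as was limma 3.58.1 on log2(TPM + 1) and log2(TPM + 0.1). Other alternatives changed the scaling, the filter, or the dispersion, divided counts by 4, blocked on replicate number, or left out each library. The scripts were tested on simulated data. Gene positions are those of the deposited tables, and shared exons come from GENCODE M21.

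The members and gene lists were chosen with earlier results of these data known. Partner genes were named by rule: the 6 smallest p in each direction among those called, and the first gene of each role. Of each marker list, up to 2 genes per direction were eligible by smallest p. Likeness was measured against the members' mean centred log2 CPM.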

Additional observations from a re-analysis of the deposited data

How the results depend on the processing

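Across 16 alternative analyses, the members past an adjusted p of 0.05 on the higher side numbered 4 in the main analysis, 1 (*Mfap5*) under both limma fits of TPM values, and 2 to 4 when each library was left out. Members past both cutoffs numbered 1 in the main analysis and 1 to 3 with a library left out, the 3 without DM1 library 2. Partner genes that rose numbered 14 in the main analysis, 17 with DESeq2, 3 under both limma fits, and 6 to 16 with a library left out. Partner genes that fell numbered 9, 10 with DESeq2, and 4 to 13 with a library left out. The limma fits called 351 and 343 genes higher and 623 and 613 lower over all genes, compared with 1356 and 1660 in the main analysis. The cause was not tested. The share of calls on the higher side was 45.0% in the main analysis and 36.0% and 35.9% in the limma fits, and 52.8% without normal library 3.

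Of the single-gene fold changes under these alternatives, 574 kept their direction and side of the threshold, 92 lost the call, 10 gained it, and 12 changed sign, all of them small. Under the limma fits the log2 fold change of *Mfap3* was -0.07 and -0.08 and that of *Fkbp10* -0.04 in both. With each library left out in turn, the values ran from -0.40 to 0.02 for *Mfap2*, from -0.04 to 0.16 for *Efemp2*, from -0.22 to 0.11 for *Adamtsl4*, from -0.18 to 0.02 for *Mmp2*, and from -0.01 to 0.10 for *Fkbp10*.

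The replicate numbers are shared between groups in the labels, but deviations of same-numbered libraries correlated by 0.0675, 0.0222, and 0.0263 only, so the numbers were not taken as pairs. With a replicate block, 4 members were past the threshold higher and 0 lower, 1 was past both cutoffs, and 14 partner genes rose and 10 fell. *Efemp1* lost its call under the block (adjusted p = 0.0508), and *Tgfb2* gained one (adjusted p = 0.0469). Counts of *Mfap2* and *Mfap4* were low, and for *Eln* and *Fbn2* the depth sets only an upper limit.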
